A study of Mus musculus with 7 samples.

Results

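Erythroblastic islands are the marrow niches in which maturing erythroblasts surround a central macrophage, and 10 genes known from that macrophage were followed here in sorted erythroblasts. The genes are C1qa, C1qb, C1qc, Vcam1, Cd163, Csf1r, Adgre1 (listed as Emr1 in older annotation), Mertk, Axl and Cd5l, chosen by name. Every probe set (a group of short probes against a single transcript) that the array's annotation matched to a member alone was taken, which gave 17 probe sets of the 45037 that are not controls, and 10 genes of the 18193 with a probe set of their own. C1qb, Vcam1 and Csf1r had 3 probe sets each, Axl had 2 and the other members had 1.

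RNA of TER-119+ CD71+ marrow erythroblasts was measured on Affymetrix mouse arrays, to find what loss of SOD2, the superoxide dismutase of mitochondria, changes during erythropoiesis. Samples of the Sod2+/+ genotype carry replicate numbers 17, 29, 33 and 37 (n = 4), and samples of the Sod2-/- genotype carry numbers 31, 35 and 39 (n = 3). Another Sod2-/- array that the study made was not analysed here. The submitters call the samples biological replicates, but do not say whether each is from a single animal, so p-values measure the spread between these samples. Both genotypes were made in the same way: fetal liver cells of littermates from matings of heterozygous B6-Sod2tm1Cje mice, at E13.5 to E16.5 of gestation, were injected into irradiated C57BL/6 Ly5.1 hosts that were 11 to 15 weeks old, so all hosts carried normal Sod2. The sort took live cells of medium to high forward scatter by TER-119 and CD71, and its description names no macrophage antigen and no Ly5 antigen, although the labels call the tissue CD45.2+, the donor type. Macrophages of the irradiated hosts can outlast irradiation, so macrophage RNA in a sample may be of donor or host origin, and these cannot be told apart. Sod2 itself read 8.20 to 8.62 in Sod2+/+ and 8.09 to 8.61 in Sod2-/- arrays on its brightest probe set, which does not check the genotype, since Sod2 probe sets can lie outside the deleted exon. In bulk RNA, fewer cells of a type and less RNA per cell cannot be told apart either.

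Island macrophages hold erythroblasts by adhesion proteins such as VCAM1, supply iron, and engulf the nuclei that erythroblasts expel. MERTK and AXL are receptor kinases that bind dying cells and expelled nuclei through bridging proteins, and CSF1R is the receptor for the growth factor on which macrophages depend. C1q, which has 3 kinds of chain, starts the classical complement cascade and tags debris for uptake, CD163 takes up haptoglobin-hemoglobin complexes, and CD5L is a secreted scavenger protein of tissue macrophages.

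None of the 17 member probe sets passed the comparison of genotypes in limma, a linear model with moderated variances, at a Benjamini-Hochberg adjusted p under 0.05 over all 45037 probe sets. By the same test 0.566% of all probe sets were higher in Sod2-/- erythroblasts and 2.83% were lower. By gene, each standing by its brightest probe set, 0 of 10 members passed in either direction, against 0.412% of all genes higher and 4.47% lower. At an unadjusted p under 0.05, 1 member probe set, of Axl, passed, against 19.5% of all probe sets in either direction. No member probe set was free of overlap between the genotypes with all Sod2-/- values on the higher side, against 7.84% of all probe sets. The values below are on the log2 scale as the authors made them, and a positive log2 fold change is a higher mean in Sod2-/- than in Sod2+/+ samples. How bright a probe set is depends also on its probes, so values were not compared between genes.

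**Figure D1:**
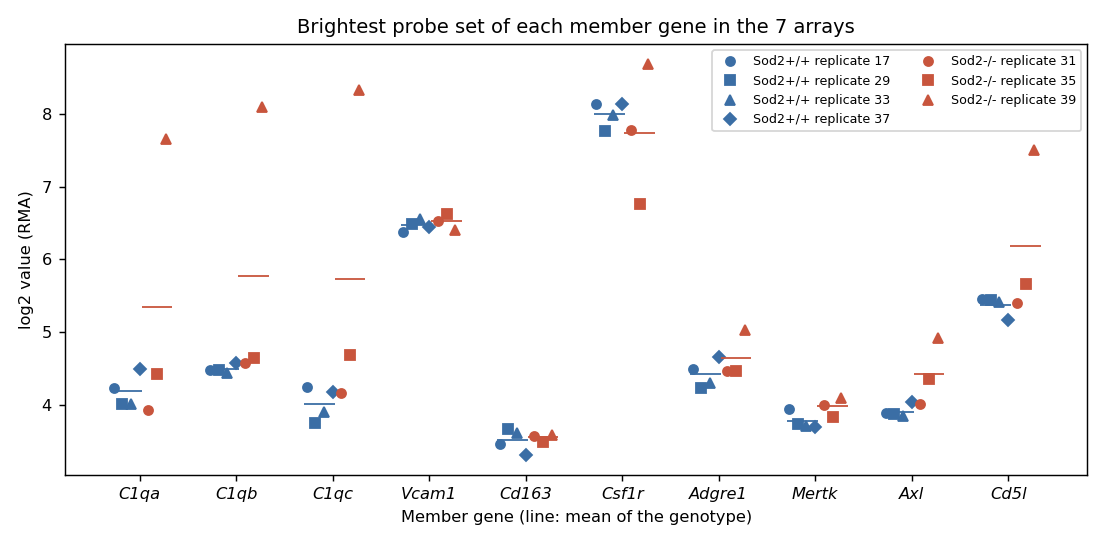
The log2 value (y axis) of the brightest probe set of each of the 10 member genes (x axis) is plotted for the 4 Sod2+/+ arrays (blue) and the 3 Sod2-/- arrays (red), with a short line at the mean of each genotype. Sod2-/- replicate 39 stands far above the other arrays for C1qa (7.65), C1qb (8.09), C1qc (8.33) and Cd5l (7.50), while the points of Vcam1, Cd163 and Mertk lie close together.

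The C1q genes were high in a single array. C1qa, C1qb and C1qc encode the 3 chains of C1q and lie side by side within 18.7 kb of chromosome 4 (GRCm38.p6, chr4:136880126-136898844). C1qb, by its brightest probe set, read 4.48, 4.48, 4.44 and 4.58 in Sod2+/+ replicates 17, 29, 33 and 37 against 4.57, 4.64 and 8.09 in Sod2-/- replicates 31, 35 and 39. The first 6 of these values spanned 0.20 log2 units, and replicate 39 was 10.9-fold above the highest of them. With means of 4.50 ± 0.06 (SD, n = 4) and 5.77 ± 2.01 (SD, n = 3), the log2 fold change was 1.27 (SE 0.74, adjusted p = 0.395). The other C1qb probe sets had the same high array: 1437726_x_at read 3.88 to 4.23 in 6 arrays and 8.36 in replicate 39, and 1434366_x_at read 4.63 to 4.84 and 6.18. The brightest probe set was picked by its mean over all 7 arrays, so replicate 39 bore on the choice. In the other 6 arrays 1434366_x_at was the brighter, against 4.44 to 4.64 for the probe set used. The log2 fold change of 1434366_x_at was 0.55 (SE 0.30, adjusted p = 0.365).

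C1qc read 4.25, 3.75, 3.91 and 4.18 in Sod2+/+ replicates 17, 29, 33 and 37 against 4.17, 4.68 and 8.33 in Sod2-/- replicates 31, 35 and 39. Replicate 39 was 12.5-fold above the next array, replicate 35, while replicate 31 lay inside the Sod2+/+ range. The log2 fold change was 1.70 (SE 0.84, adjusted p = 0.311), the largest among the member genes. C1qa read 4.24, 4.02, 4.02 and 4.50 in the Sod2+/+ replicates, in the same order, against 3.93, 4.43 and 7.65 in the Sod2-/- replicates. Replicate 39 was 8.86-fold above the next array, and the other Sod2-/- values overlapped with those of Sod2+/+. The other arrays lay near the array medians for C1qa and C1qc and no detection calls were used, so these folds are distances between the deposited values and may understate the difference in RNA. The log2 fold change of C1qa was 1.14 (SE 0.75, adjusted p = 0.452).

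Cd5l, encoding the scavenger protein CD5L, lies on chromosome 3 (chr3:87357881-87371074) and had the same high array. It read 5.46, 5.44, 5.41 and 5.17 in Sod2+/+ replicates 17, 29, 33 and 37 against 5.40, 5.66 and 7.50 in Sod2-/- replicates 31, 35 and 39. Replicate 39 was 3.59-fold above replicate 35, and replicate 31 lay below 3 of the Sod2+/+ values. For Cd5l the log2 fold change was 0.82 (SE 0.43, adjusted p = 0.342).

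Without Sod2-/- replicate 39 these differences were small. The log2 fold changes then became -0.01 for C1qa (SE 0.18, adjusted p = 0.986), 0.11 for C1qb (SE 0.08, adjusted p = 0.536), 0.40 for C1qc (SE 0.18, adjusted p = 0.315) and 0.16 for Cd5l (SE 0.12, adjusted p = 0.558). No member probe set passed limma's threshold in either direction in that comparison, against 0.191% of all probe sets higher and 0.919% lower. Within the fluidics station that processed replicates 33, 37, 35 and 39, the log2 fold changes were 1.78 for C1qa, 1.86 for C1qb, 2.46 for C1qc and 1.29 for Cd5l. Within the station that processed replicates 17, 29 and 31 they were -0.19, 0.09, 0.17 and -0.05, in the same order. By chip lot, replicate 35 went with all Sod2+/+ arrays, while replicates 31 and 39 shared another lot, which holds Sod2-/- samples alone. With chip lot as a block, which sets replicate 35 alone against the Sod2+/+ arrays, the log2 fold changes were 0.24 for C1qa, 0.15 for C1qb, 0.66 for C1qc and 0.28 for Cd5l. Replicate 31, which shares the lot of replicate 39, had values of 3.93 for C1qa, 4.57 for C1qb, 4.17 for C1qc and 5.40 for Cd5l.

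**Figure D2:**
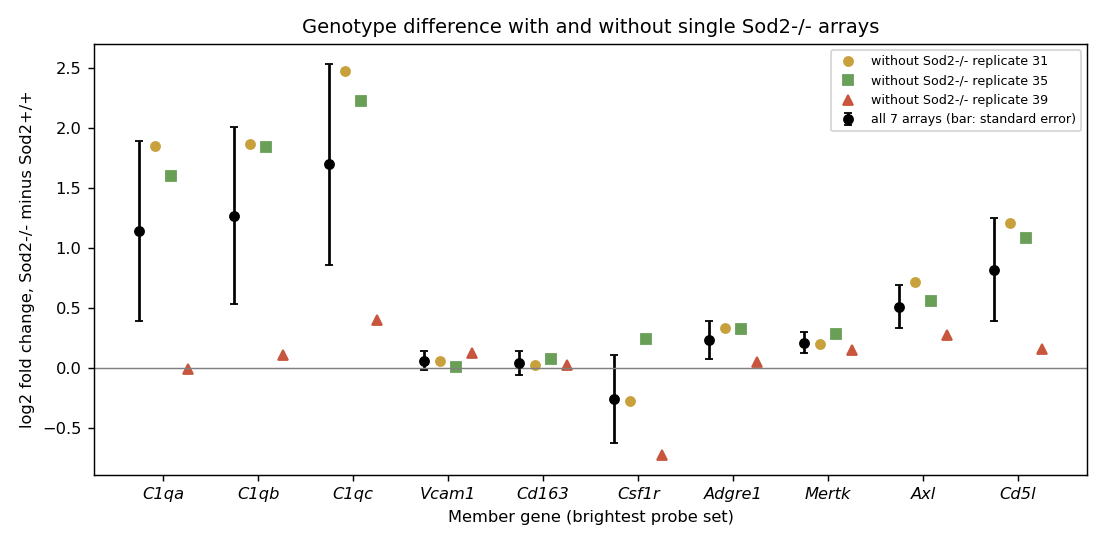
Log2 fold change of each member gene (y axis, Sod2-/- minus Sod2+/+) with all 7 arrays (black, bar = standard error) and without each Sod2-/- array in turn (coloured). For C1qa, C1qb, C1qc and Cd5l the value was lower without replicate 39 (0.11 for C1qb, against 1.27 with all arrays), and the value of Csf1r was -0.26 with all arrays and 0.24 without replicate 35.

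Since C1qb, C1qc and Cd5l were high together in the same array, the 250 bases before their RefSeq transcript starts are shown to set their regulatory letters side by side (GRCm38.p6, 5′ to 3′ on the strand of the gene). The windows are chr4:136886201-136886450 on the minus strand for C1qb, chr4:136892915-136893164 on the minus strand for C1qc and chr3:87357631-87357880 on the plus strand for Cd5l. Capitals mark GAGGAA, the core letters bound by the macrophage factor PU.1, and TGCTGA, the letters that open a Maf recognition element, each on either strand (TTCCTC and TCAGCA on the opposite strand), with no overlap between them.
C1qb: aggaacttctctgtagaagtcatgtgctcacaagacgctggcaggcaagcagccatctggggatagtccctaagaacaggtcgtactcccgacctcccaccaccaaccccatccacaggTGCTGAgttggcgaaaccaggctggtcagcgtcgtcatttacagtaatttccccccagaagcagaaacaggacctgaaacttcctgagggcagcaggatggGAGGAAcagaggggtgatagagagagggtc
C1qc: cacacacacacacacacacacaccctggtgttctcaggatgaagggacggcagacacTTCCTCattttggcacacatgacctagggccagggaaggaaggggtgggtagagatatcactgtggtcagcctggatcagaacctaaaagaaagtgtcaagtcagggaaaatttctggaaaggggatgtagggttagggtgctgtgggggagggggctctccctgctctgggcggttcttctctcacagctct
Cd5l: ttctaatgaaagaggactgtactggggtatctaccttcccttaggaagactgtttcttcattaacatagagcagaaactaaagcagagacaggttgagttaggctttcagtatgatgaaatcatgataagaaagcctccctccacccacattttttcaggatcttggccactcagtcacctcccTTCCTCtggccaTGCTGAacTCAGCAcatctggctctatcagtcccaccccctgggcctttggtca
GAGGAA was present once in each of the 3 windows. TGCTGA was present once in C1qb, 2 times in Cd5l, where the matches sit next to each other on opposite strands, and 0 times in C1qc. Windows of Mertk, Axl and Cd163 were searched as well, and that of Axl held GAGGAA once. The windows of C1qc, Axl and Cd163 reach into the annotated span of their gene, so not all their letters lie before it. In all, GAGGAA was found in 4 of 6 member windows against 23.3% of 32851 RefSeq windows of the same length, and TGCTGA in 2 of 6 against 16.1%. Such matches describe the letters and are not binding sites.

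Among the adhesion and growth factor receptors, the 3 probe sets of Csf1r did not read alike. The brightest Csf1r probe set, 1419872_at, read 8.13, 7.76, 7.98 and 8.13 in Sod2+/+ replicates 17, 29, 33 and 37 against 7.78, 6.76 and 8.69 in Sod2-/- replicates 31, 35 and 39. The outer Sod2-/- arrays thus lay at opposite ends, replicate 39 above and replicate 35 below all others, and replicate 31 lay inside the Sod2+/+ range. The log2 fold change was -0.26 (SE 0.37, adjusted p = 0.763), and it was -0.73 without replicate 39 (SE 0.25, adjusted p = 0.198) and 0.24 without replicate 35. In the chip lot that holds both genotypes, replicate 35 is the lone Sod2-/- sample, and the value of -1.24 there (adjusted p = 0.0361, with the lone sample assumed to vary like the others) restates the low reading of that array. In that lot limma called 459 of all probe sets lower and 43 higher. The other Csf1r probe sets spanned less: 1419873_s_at ran from 6.69 to 7.12 in 6 arrays with 7.30 in replicate 39, and 1423593_a_at from 6.55 to 6.82 with 6.92. Their log2 fold changes were 0.08 (SE 0.15, adjusted p = 0.820) and 0.05 (SE 0.09, adjusted p = 0.831).

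Vcam1, the adhesion protein by which island macrophages hold the integrin of erythroblasts, read 6.38, 6.48, 6.56 and 6.45 in Sod2+/+ replicates 17, 29, 33 and 37 against 6.53, 6.63 and 6.41 in Sod2-/- replicates 31, 35 and 39. The genotypes overlapped, and replicate 39 lay within the Sod2+/+ range. The means were 6.47 ± 0.07 (SD, n = 4) and 6.53 ± 0.11 (SD, n = 3), with a log2 fold change of 0.06 (SE 0.08, adjusted p = 0.732). Its other probe sets gave 0.01 (SE 0.11, adjusted p = 0.979) and -0.37 (SE 0.19, adjusted p = 0.330), the latter on 1448162_at, which read 4.19 to 5.05 in Sod2+/+ and 3.93 to 4.28 in Sod2-/- arrays. Vcam1 lies at chr3:116110020-116129688.

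Adgre1, encoding a surface receptor by which mouse macrophages are often stained, read 4.50, 4.23, 4.30 and 4.66 in Sod2+/+ replicates 17, 29, 33 and 37 against 4.46, 4.47 and 5.03 in Sod2-/- replicates 31, 35 and 39. Replicate 39 was again the highest, 1.29-fold above the next array, and the other Sod2-/- arrays lay inside the Sod2+/+ range. The log2 fold change was 0.23 (SE 0.16, adjusted p = 0.475) and 0.05 without replicate 39. Adgre1 lies at chr17:57358581-57483529.

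Of the phagocytic receptors, Axl (chr7:25756500-25788924) had the smallest p of the members. The brightest Axl probe set read 3.89, 3.87, 3.85 and 4.04 in Sod2+/+ replicates 17, 29, 33 and 37 against 4.02, 4.35 and 4.92 in Sod2-/- replicates 31, 35 and 39. Replicates 39 and 35 lay above all Sod2+/+ arrays, and replicate 31 lay just below Sod2+/+ replicate 37. The means were 3.91 ± 0.09 (SD, n = 4) and 4.43 ± 0.46 (SD, n = 3). Axl had a log2 fold change of 0.51 (SE 0.18), which did not pass after adjustment (adjusted p = 0.162). Without replicate 39 it was 0.27 (SE 0.11, adjusted p = 0.274), and the other Axl probe set read 3.07 to 3.18 over all 7 arrays, with a log2 fold change of 0.03 (SE 0.06, adjusted p = 0.848).

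Mertk (chr2:128698915-128803162) read 3.95, 3.74, 3.71 and 3.70 in Sod2+/+ replicates 17, 29, 33 and 37 against 4.00, 3.84 and 4.10 in Sod2-/- replicates 31, 35 and 39. Sod2-/- replicate 35 lay below Sod2+/+ replicate 17, so the genotypes overlapped, and all values stood below the median of their array. The log2 fold change was 0.21 (SE 0.09, adjusted p = 0.262). Cd163, the hemoglobin scavenger receptor (chr6:124304636-124330529), read 3.47, 3.67, 3.62 and 3.31 in the Sod2+/+ replicates, in the same order, against 3.58, 3.49 and 3.59 in the Sod2-/- replicates. All Sod2-/- values of Cd163 lay inside the Sod2+/+ range, also below the array medians, and the log2 fold change was 0.04 (SE 0.10, adjusted p = 0.879).

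Over the 10 member genes, 9 log2 fold changes were above 0 and 1 was below, with a median of 0.37, beside a median of 0.02 over all 18193 genes. Without replicate 39 the members' median was 0.11 and that of all genes 0.01. Replicate 39 was the highest of the 7 arrays for 8 of 10 member genes, against 15.4% of all genes, and for 13 of 17 member probe sets, against 17.3% of all probe sets. Replicate 39 read at least 1 log2 unit above each other array in 6 of the 17 member probe sets (those of C1qa, C1qb, C1qc and Cd5l), against 0.151% of all probe sets, a distance chosen after the values were seen. Over all probe sets, the first principal component (51.3% of the variance) had replicate 39 at 31.8, between Sod2-/- replicates 31 (16.2) and 35 (41.2). On the second (16.9% of the variance) replicate 39 stood at 32.0, Sod2+/+ replicate 37 at 16.1, and the others between -18.6 and -5.6. Array medians ran from 4.45 to 4.54.

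**Figure D3:**
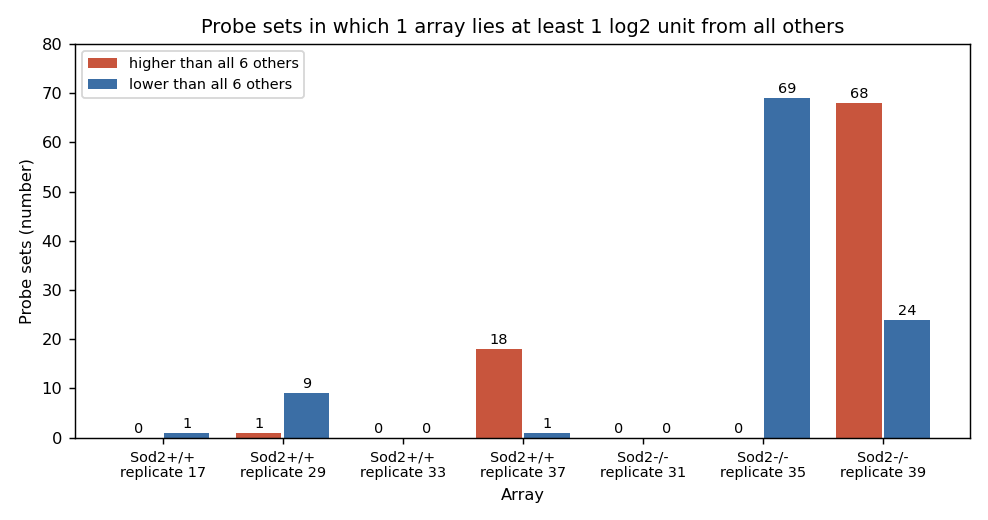
For each array (x axis), bars give the number of probe sets, of all 45037, that read at least 1 log2 unit higher (red) or lower (blue) than in all other arrays. Sod2-/- replicate 39 had 68 higher and 24 lower, Sod2-/- replicate 35 had 69 lower, and Sod2+/+ replicate 37 had 18 higher.

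The degree of RNA degradation was read from control probe sets at both ends of 2 transcripts. The 3′ minus 5′ difference of Gapdh was 1.24 to 1.45 in Sod2+/+ and 1.10 to 1.21 in Sod2-/- arrays (exact two-sided permutation p = 0.0571, the smallest that 4 against 3 samples allow), and replicate 39 had 1.21. That of beta-actin was 0.67 to 0.87 and 0.69 to 0.78 (exact two-sided permutation p = 0.857). The part of RNA quality in the members' values was not tested.

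The further macrophage markers were mixed in replicate 39. Of 30 further macrophage markers 28 were measured, 17 with a log2 fold change above 0 and 11 below, and limma called 0 of them in either direction, while at an unadjusted p under 0.05 there were 3 higher and 6 lower. Over all 18193 genes, the same unadjusted p in limma gave 1215 higher and 3352 lower. Among the 28 markers, leaving out Sod2+/+ replicate 33 or Sod2-/- replicate 31 gave 1 call, lower. The sum of their linear levels was 10891 to 13593 in Sod2+/+ and 7739 to 12102 in Sod2-/- arrays. Lyz1, Lyz2 and Ctsb were the brightest, with Sod2+/+ means of 11.64, 11.35 and 11.44, and weigh most in this sum. Which cells carry the RNA of the 28 markers was not tested, so it may also come from cells other than macrophages. Replicate 39 was the highest array for 13 of the 28, or for a larger share than the 15.4% of all genes, and in 0 of the 28 did it read 1 log2 unit above each other array. The median deviation from the Sod2+/+ mean was 0.20 in replicate 39, the highest of the arrays, and 0.15 in Sod2+/+ replicate 37. The mean deviation was 0.15 in both of these arrays and -0.41 in replicate 35. For the members the same mean was 1.61 in replicate 39 and lay between -0.07 and 0.08 in the other arrays. The markers furthest above the other arrays in replicate 39 were Lgmn, encoding the lysosomal protease legumain, at 5.57 against 4.32 to 4.70, Cd68, a lysosomal protein of macrophages, at 6.05 against 4.55 to 5.53, and Apoe, encoding apolipoprotein E, at 5.05 against 4.13 to 4.61. Those furthest below the highest other array were Slc40a1, encoding the iron exporter ferroportin, at 7.22 against 7.87 to 8.56, Fcgr3, an Fc receptor gene, at 6.01 against 5.79 to 7.08, and Cybb, of the phagocyte oxidase, at 8.27 against 6.77 to 9.15. Siglec1, encoding the sialoadhesin of island macrophages, read 4.93 in replicate 39 and 4.57 to 4.93 in the others. Vsig4, a complement receptor of resident macrophages, read 4.17 and 4.03 to 4.21, and Spic, encoding the factor on which iron-recycling macrophages depend, read 4.55 and 4.02 to 4.28. Of the 28 markers, 19 stood above the array median in all 7 arrays and 2 (Vsig4 and Aif1) in none.

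Markers of other blood cells were read in the same way. Over all 18193 genes, limma called 75 higher and 813 lower. At an unadjusted p under 0.05 in limma there were 1215 higher and 3352 lower. Monocyte markers had mean deviations of 0.04 in replicate 39 and -0.46 in replicate 35, and 0 of 9 were called. Neutrophil markers were below the Sod2+/+ mean in all Sod2-/- arrays, with mean deviations of -0.12, -1.39 and -0.79 in replicates 31, 35 and 39, and 0 of 16 were called, although 13 had an unadjusted p under 0.05, all lower, and 12 were called lower when replicate 31 was left out. Of 16 B cell markers limma called 8, all lower (Cd79a by -1.78, adjusted p = 0.00284), and of 9 mast cell, basophil and eosinophil markers 3, all lower (Epx by -1.87, adjusted p = 0.0221). Epx did not pass without replicate 39 at nearly the same difference (-1.88, adjusted p = 0.0534), and 0 of these markers passed without Sod2+/+ replicate 29 or 37 or Sod2-/- replicate 35 or 39. Erythroid markers, 14 of 16 of which stood above the 90th percentile of every array, had mean deviations between -0.05 and 0.16, with 0 called. Of 11 dendritic cell, 10 T and NK cell, 8 megakaryocyte and 15 endothelial and stromal markers 0 were called. The part of these cells in the members' values was not tested.

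**Figure D4:**
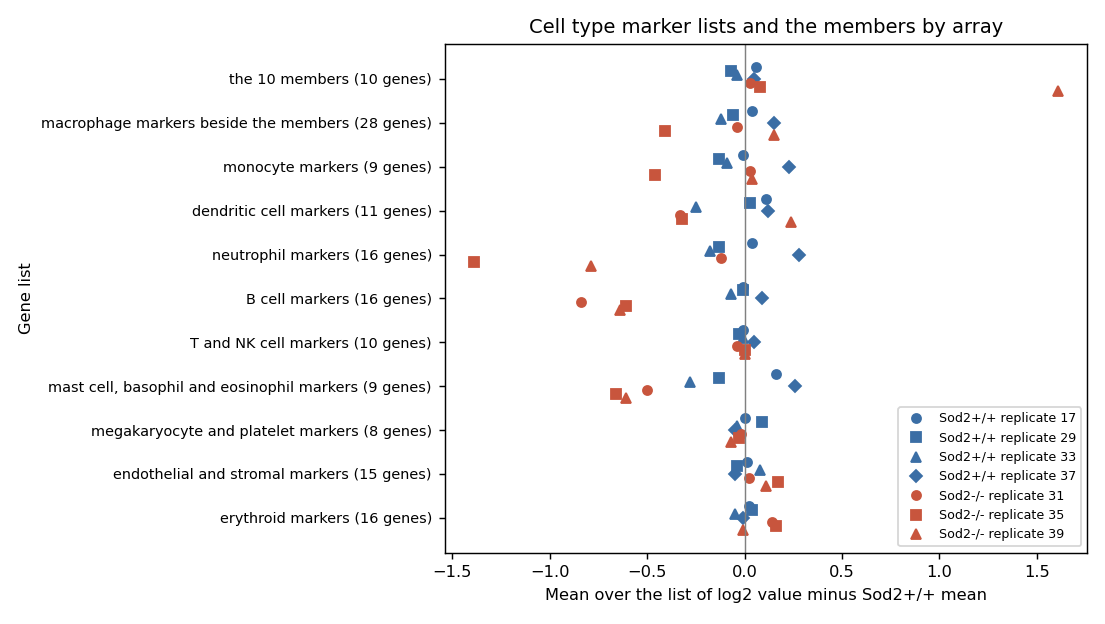
Each row is a gene list, and each point is the mean over the list, in a single array, of the log2 value minus the Sod2+/+ mean (x axis), with Sod2+/+ arrays in blue and Sod2-/- arrays in red. The 10 members stand at 1.61 in Sod2-/- replicate 39, while the 28 further macrophage markers stand at 0.15 in that array and at -0.41 in replicate 35.

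The wider pathways of the members were described with 5 lists of genes. Beside their counts at an unadjusted p under 0.05 in limma stand 1215 higher and 3352 lower of all 18193 genes. Of 17 phagocytic receptors, ligands and bridging proteins, 12 had a log2 fold change above 0 and 5 below, limma called 0 (at an unadjusted p under 0.05, 3 higher and 2 lower), and the median was 0.06. Without Sod2+/+ replicate 33, 1 of them was called higher and 1 lower. Cd36, a scavenger receptor that erythroid precursors also carry, had 9.53 to 10.46 in Sod2+/+ arrays. It had 9.38, 9.46 and 8.13 in Sod2-/- replicates 31, 35 and 39, with replicate 39 lowest (log2 fold change -0.91, SE 0.33, adjusted p = 0.171). Gas6 and Pros1, which encode the proteins that bridge MERTK and AXL to dying cells, had log2 fold changes of 0.10 (SE 0.09, adjusted p = 0.574) and 0.08 (SE 0.07, adjusted p = 0.625). Timd4, a receptor for exposed phosphatidylserine on resident macrophages, read 4.10 to 4.38 in 6 arrays and 4.03 in replicate 39.

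Of 14 genes of the adhesion between erythroblasts and macrophages, 6 had values above 0 and 8 below, limma called 0 (at an unadjusted p under 0.05, 0 higher and 4 lower), and the median was -0.03. Itga4, the integrin chain of erythroblasts that binds VCAM1, read 9.51 to 9.84 in Sod2+/+ arrays. It read 9.46, 9.30 and 8.72 in Sod2-/- replicates 31, 35 and 39 (log2 fold change -0.46, SE 0.17, adjusted p = 0.174). Cd44, a hyaluronan receptor, and Spn, encoding the sialophorin CD43, had the largest differences of this list, -0.98 (SE 0.25, adjusted p = 0.0717) and -0.54 (SE 0.13, adjusted p = 0.066), and neither passed. Maea, encoding the erythroblast macrophage protein, had -0.46 (SE 0.13, adjusted p = 0.0865).

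Of 14 measured genes of hemoglobin and iron recycling, 9 had values above 0 and 5 below, limma called 0 (at an unadjusted p under 0.05, 3 higher and 3 lower), and the median was 0.08. Slc40a1 (ferroportin) read 8.25 to 8.56 in Sod2+/+ arrays and 8.12, 7.87 and 7.22 in Sod2-/- replicates 31, 35 and 39. Replicate 39 was the lowest array for ferroportin, and the log2 fold change over the genotypes was -0.67 (SE 0.19, adjusted p = 0.0949). Hp, encoding haptoglobin, had -0.81 (SE 0.41, adjusted p = 0.319), with 7.19 in replicate 35 and 8.52 to 9.45 in the other arrays. Replicate 35 was also the lowest array for the neutrophil markers, with a mean deviation of -1.39. Which cells carry the RNA of Slc40a1 and Hp was not tested.

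Of 14 measured genes for CSF1R, its ligands and macrophage transcription factors, 7 had values above 0 and 7 below, with a median of 0.03. Of these, 1 passed, as lower, against 4.47% of all genes lower. Irf8, a factor for monocyte and macrophage commitment, read 6.96, 7.06, 7.14 and 7.40 in Sod2+/+ replicates 17, 29, 33 and 37 and 6.37, 6.19 and 6.53 in Sod2-/- replicates 31, 35 and 39. Every Sod2-/- value of Irf8, replicate 39 included, lay below every Sod2+/+ value. In bulk RNA, fewer cells with Irf8 and less Irf8 RNA per cell cannot be told apart. Of 16 B cell markers, 14 had a log2 fold change below 0 and 2 above. Their mean deviations were -0.84, -0.61 and -0.64 in Sod2-/- replicates 31, 35 and 39. Which cells carry the Irf8 RNA was not tested. Irf8 had a log2 fold change of -0.77 (SE 0.12, adjusted p = 0.0223), and of -0.86 without replicate 39 (adjusted p = 0.037). It did not pass without Sod2+/+ replicate 29 (adjusted p = 0.0529) or without Sod2-/- replicate 35 (adjusted p = 0.0773), nor by the methods' t-test, with an offset of 32, within either fluidics station or in the shared chip lot alone. Spi1, encoding PU.1, had -0.75 (SE 0.25, adjusted p = 0.138), and Csf1, encoding the main ligand, had 0.06 (SE 0.08, adjusted p = 0.752).

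Of 15 measured complement genes beside C1q, 8 had values above 0 and 7 below, limma called 0 (at an unadjusted p under 0.05, 1 higher and 2 lower), and the median was 0.00. C1ra and C1s1, which encode the proteases that complete the C1 complex with C1q, read 3.85 to 4.13 and 3.80 to 3.96 over the 7 arrays, and replicate 39 had 4.08 and 3.96. Itgax, encoding a chain of complement receptor 4, was the gene of this list that stood with C1q, at 4.22 to 4.55 in 6 arrays and 6.94 in replicate 39 (log2 fold change 0.95, SE 0.53, adjusted p = 0.374). Cd59a, encoding an inhibitor of the membrane attack complex, had -0.59 (SE 0.14, adjusted p = 0.0559).

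The genes whose pattern was most like the members' mean were searched among 2453 other genes that varied over the arrays. The 5 closest over the 7 arrays were Dusp12, Itgax, Rgs1 and Ro60 (Pearson's r = 1.00 each) and Fcgr4 (r = 0.99), a description that rests on replicate 39, since over the other 6 arrays r was 0.78, 0.67, 0.36, 0.72 and 0.72. Fcgr4, encoding an activating Fc receptor of monocytes and macrophages, read 6.44 to 7.06 in 6 arrays and 11.04 in replicate 39, a 15.8-fold distance to the next array. Rgs1, encoding a regulator of G protein signalling, read 5.13 to 5.27 and 7.18. Dusp12, a phosphatase gene, read 4.36 to 4.61 and 6.10, and Ro60, encoding an RNA-binding protein, read 3.66 to 3.81 and 4.72.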

How the data were processed

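RNA of sorted erythroblasts was measured on 4 Sod2+/+ and 3 Sod2-/- arrays, grouped by the genotype in the labels. The authors made the deposited log2 values with RMA (robust multi-array averaging). It subtracts background and gives the probe intensities of all arrays a common distribution, so differences of faint probe sets can be compressed. This is done before probes are summarized into probe sets, and the array medians of the deposited values still ran from 4.45 to 4.54. The submitters' processing notes also name GCOS 1.3.037. It is not stated whether the other Sod2-/- array entered that run. Values were used as deposited, after 64 control probe sets were left out. The annotation matched 34945 of 45037 probe sets to 1 gene, 932 to several and 9160 to none.

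The genotype difference of each probe set was fitted with lmFit and eBayes of limma 3.58.1 (R 4.3.3), without covariates, and p-values were adjusted by Benjamini-Hochberg over 45037 probe sets, with a threshold of 0.05. A gene stood by its brightest probe set matched to it alone. Named genes were the members, the 3 largest changes among calls of a list or the 2 largest where none passed, and the 5 genes most like the members' mean with an SD of at least 0.3. Not all of these are printed, and Gas6, Pros1, Timd4, Itga4, Maea, Siglec1, Vsig4, Aif1, Spic, Cd68, Lgmn, Apoe, Fcgr3, Spi1, Csf1, C1ra and C1s1 were named outside this rule, after their values were seen. Members and lists were chosen with earlier results of these data known. RNA quality was compared by an exact permutation test (scipy 1.17.1). Gene positions and promoter letters are from RefSeq on GRCm38.p6, whose promoter table held 6 of the 10 members.

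Alternatives comprised the methods' t-test (equal and unequal variances), trend and robust eBayes (statmod 1.5.0), array weights, quantile normalization, centring on array medians, an offset of 32, probe sets brighter than 4.48 alone, fluidics station and chip lot as blocks and alone, the mean of a gene's probe sets, and leaving out each of the 7 arrays. On simulated data with 45037 probe sets, limma found 71.8% of 1.5-fold and 96.4% of 2-fold changes with 5.35% false calls. These shares are over all probe sets, with normal values drawn independently. They do not give the share for genes as variable as those of C1q. The number of arrays limits the precision.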

Additional observations from a re-analysis of the deposited data

Results flagged for a closer look

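In 2 of the 17 member probe sets 1 Sod2+/+ array stood apart from the other 3 by Dixon's criterion, which chance meets in about 1 in 20 groups. Csf1r probe set 1423593_a_at read 6.55 in Sod2+/+ replicate 29, and the nearest Sod2+/+ value was 6.78. Mertk read 3.95 in Sod2+/+ replicate 17, and the nearest was 3.74. The 3 Sod2-/- arrays were too few for this criterion, so the distance of replicate 39 was not tested by it.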

How the results depend on the processing

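No member probe set was called higher under any alternative, and none lower except Csf1r 1419872_at, the 1 call made in the chip lot with both genotypes alone (-1.24), where replicate 35 is the only Sod2-/- array. The members' median of 0.37 was 0.82 with bright probe sets alone, which leaves out Cd163, Mertk and Axl, and 0.09 in station 1 alone. Brightness was the mean over all arrays, with a cut of 4.48, so replicate 39 bore on which members stayed. C1qa, C1qc and Adgre1 averaged 4.19, 4.02 and 4.42 in Sod2+/+ arrays, and read 7.65, 8.33 and 5.03 in Sod2-/- replicate 39. The value of 0.82 thus depends in part on that array. The members' median ran from 0.11 (without Sod2-/- replicate 39) to 0.52 (without Sod2-/- replicate 31) when single arrays were left out. Of 207 values of member genes under alternatives, 197 kept their direction and side of the threshold, 1 passed it (Csf1r, above) and 9 changed sign: Cd163 to -0.0026 centred on array medians and to -0.03 with chip lot as a block, in the shared chip lot alone and without Sod2+/+ replicate 37, C1qa to -0.19 and Cd5l to -0.05 in station 1 alone, C1qa to -0.01 without Sod2-/- replicate 39, Csf1r to 0.24 without Sod2-/- replicate 35, and Vcam1 to -0.10 with the mean of its probe sets. Over the arrays left out in turn, C1qa ran from -0.01 to 1.85, Csf1r from -0.73 to 0.24 and Cd163 from -0.03 to 0.09. Apart from the arrays left out, the cause of these changes was not tested. Chip lot as a block gave the fold changes of the shared lot alone, since the second lot holds Sod2-/- arrays only.

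Among the 5 pathway lists, the count of 0 calls became 1 lower for adhesion (trend and robust eBayes, chip lot as a block) and 2 lower (bright probe sets), 1 lower for iron recycling (chip lot as a block, shared lot alone) and 1 higher (quantile normalization), 1 lower for complement (array medians, bright probe sets, chip lot as a block) and 1 lower for phagocytic genes (bright probe sets). The 1 lower call of the CSF1R list, Irf8, became 0 by both forms of the t-test, with the offset and in either station alone, and the 1 call in the shared lot alone is Csf1r.

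Over all probe sets, the 1275 lower and 255 higher calls of the main comparison became 3 and 1 by the methods' t-test with equal variances, 0 and 0 with unequal variances, 172 and 59 with an offset of 32, 826 and 656 with quantile normalization, 744 and 150 with station as a block, 735 and 82 with lot as a block, 2076 and 360 with bright probe sets alone, 459 and 43 in the shared lot alone, 1248 and 163 centred on array medians, and 0 and 0 in either station alone. Leaving out single arrays gave 98 to 1149 lower and 45 to 171 higher calls. No paired analysis was possible because the genotypes share no replicate numbers, although the samples were sorted in pairs. With 3 against 4 arrays, differences in a variable gene can be missed, also above 2-fold. C1qc, at 3.26-fold between the means, did not pass, but this fold is carried by replicate 39. Without that array its log2 fold change was 0.40 (SE 0.18, limma adjusted p = 0.315). C1qc is thus not shown to be such a missed difference.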

Other observations

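Sod2-/- replicate 39 read at least 1 log2 unit above every other array for 48 genes by any probe set, the 4 members included. The genes named here were chosen after their values were seen, with no test of a shared function. After Fcgr4, the genes beside the members with the largest distance were Clec4a3, a C-type lectin gene, which read 4.50 to 4.85 in 6 arrays and 7.96 in replicate 39, and Fabp5, encoding a fatty acid binding protein, which read 3.61 to 4.97 and 7.46. The 48 genes differ in what they are known to do, and those below are examples that do not describe the 48 as a set. Ms4a6d and Adgre4 are among those not described. Tnfrsf13c, a B cell receptor for the survival factor BAFF, read 6.01 to 6.35 in 6 arrays and 8.33 in replicate 39. Lpl, encoding lipoprotein lipase, read 5.20 to 5.41 and 7.21. Cdkn1a, encoding a cell cycle inhibitor, read 4.85 to 5.12 and 6.89, and Socs3, encoding an inhibitor of cytokine signalling, read 3.37 to 4.09 and 5.67. None of these named genes with values, Fcgr4 included, passed the genotype comparison in limma (adjusted p = 0.348 to 0.539).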
